A study of Coturnix japonica with 24 samples.

Results

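The genes described here are 6 genes known, mostly from mammals, as products of the choroid plexus, the tissue that makes cerebrospinal fluid in the brain ventricles, or of the meninges, the membranes around the brain: TTR, IGFBP2, PTGDS, AQP1, SLC4A2 and CLIC6. A probe set, a group of short array probes designed against one transcript, was taken as a member when its only gene symbol in the platform annotation was one of these names. The 6 genes are among 13009 genes that own at least 1 probe set on the array. The rule gave 9 of 38439 probe sets, of which 7 were among the 28829 bright enough to be tested. TTR had 2 probe sets and SLC4A2 had 3, and each of the other genes had 1. The array carries chicken probes, so a quail transcript that differs in sequence can give a weak signal, and levels of different genes were not compared.

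Transcripts were measured in the mediobasal hypothalamus of male Japanese quail (Coturnix japonica), the floor of the brain around the lower part of the third ventricle. Birds of 8 weeks of age that had spent 4 weeks in short days were placed in long days (20 h lit and 4 h dark per cycle) for 2 weeks, or stayed in short days (6 h lit and 18 h dark) over the same 2 weeks. Tissue was taken from 6 birds every 4 h, at zeitgeber times (ZT) 2, 6, 10, 14, 18 and 22, a scale the labels do not define, here taken to count hours from lights on. RNA from 3 birds was pooled for each array, so that each of 12 groups had 2 arrays, called biological replicates in the labels, and each photoperiod had 12. The design asks which transcripts differ between the photoperiods and across the day.

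Choroid plexus epithelium secretes cerebrospinal fluid by moving ions across the cell, with water following through channels, and it releases carrier and binding proteins into that fluid. TTR (transthyretin) carries thyroid hormone and, together with retinol binding protein, vitamin A, and in birds and mammals it is among the most abundant transcripts of this epithelium. PTGDS (lipocalin-type prostaglandin D synthase) makes prostaglandin D and is itself secreted into the fluid, and in mammals it is made by meningeal cells, choroid plexus and oligodendrocytes. Thyroid hormone reaching the mediobasal hypothalamus is a known part of the photoperiodic response in quail.

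Deposited array medians lay between 10.9 and 21.1 intensity units, and in 12 of 12 groups the array with replicate number 1 was brighter, 1.22 to 1.85 times, than the one with number 2. Arrays with number 1 (set 1) and number 2 (set 2) are for this reason shown apart as well, and both sets hold every group. Intensity values are given with arrays brought to a common median (centred intensity), and changes are long minus short days on a log2 scale with a small constant added. Background on an array, the level under which 95% of the 746 probe sets whose names lack the chicken prefix lay, was 15.5 to 21.5 centred units, and 38.1% to 49.6% of probe sets on an array exceeded it. The second long-day array of ZT14 correlated least with the rest (median Spearman's rho 0.713 over the other arrays) and had the highest 3'/5' signal ratio of ACTB (2.21 log2 units), a sign of RNA quality, and results were also computed without each array in turn.

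None of the 6 genes differed between the photoperiods beyond what the test over all probe sets allows. PTGDS was on average 1.43-fold higher in long days and IGFBP2 1.16-fold lower. The average AQP1 estimate on the log2 scale was -0.389 with an SE of 0.2 (limma, unadjusted p = 0.065), and TTR and CLIC6 gave little signal. The photoperiod test of limma, with Benjamini-Hochberg adjustment across the 28829 tested probe sets, called 38 of them (0.132%), 22 higher in long days (0.0763%) and 16 lower (0.0555%). It called 0 of the 7 tested members. Taking each gene by its brightest probe set, 5 of 6 had an estimate below 0, as did 51.1% of all tested probe sets. At an unadjusted p under 0.05 the test took in 5.42% of all probe sets and 2 of the 7 members, PTGDS with a higher and IGFBP2 with a lower estimate in long days.

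The 6 genes were not equally well measured. PTGDS, IGFBP2, AQP1 and the brightest SLC4A2 probe set were above background on all 24 arrays. The brighter TTR probe set exceeded background on 10 arrays in long days and 10 in short days, of 12 each, and CLIC6 on 3 in long days and 2 in short days. The dimmer TTR probe set was above background on 0 of 24 arrays, with values of 0.58 to 16.8, and one SLC4A2 probe set on 1 of 24. Both were too dim to be tested. Markers of choroid plexus epithelium were uneven: of 38 genes of that list on the array, TTR, AQP1, CLIC6, IGFBP2 and SLC4A2 included, 19 were above background on all 24 arrays, among them ENPP2, F5 and HTR2C. The epithelium's markers KL, KCNE2 and CLDN2 were near background, being above it on 2, 1 and 1 of 12 long-day arrays and on 3, 2 and 0 of 12 short-day arrays. The transcription factor OTX2 was above background on 11 of 12 long-day and 11 of 12 short-day arrays, and the folate receptor FOLR1 on 9 of 12 and 9 of 12. In whole tissue, a lower value from fewer cells of a type and one from less RNA per cell cannot be told apart.

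**Figure D1:**
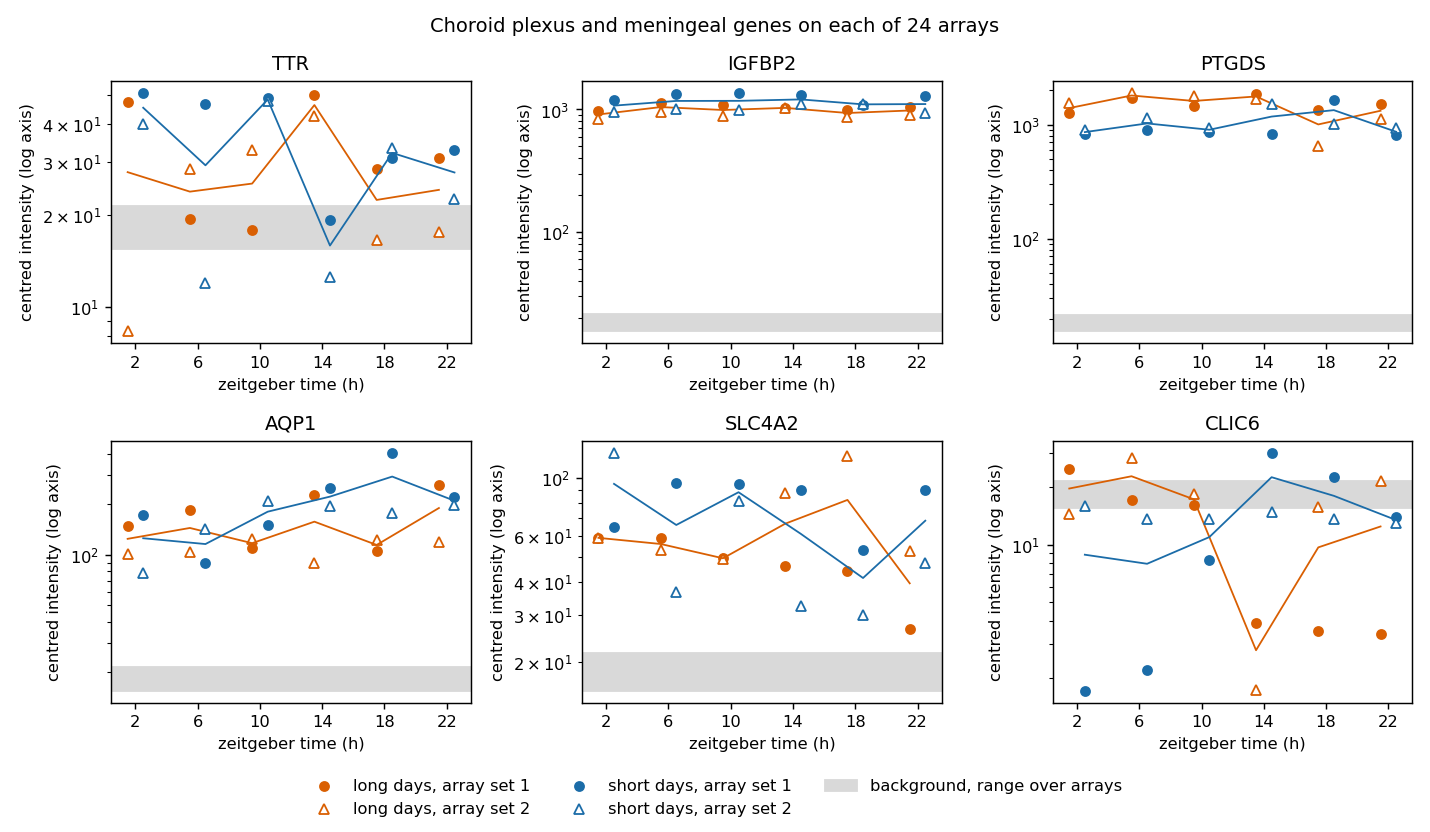
Centred intensity (log axis) of TTR, IGFBP2, PTGDS, AQP1, SLC4A2 and CLIC6, each by its brightest probe set, at each zeitgeber time. Long days are in orange and short days in blue, with set 1 as filled circles and set 2 as open triangles. Lines join the arithmetic means of the centred intensities of each group. The grey band spans the background levels of the 24 arrays, with CLIC6 mostly inside or below it, TTR partly so, and PTGDS and IGFBP2 far above it.

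Among the secreted proteins, PTGDS was the only one of the 6 genes whose brightest probe set had a photoperiod estimate above 0. A dimmer probe set of SLC4A2 was at 0.22 log2 units. In long days the intensity of PTGDS had a lowest value of 653, a median of 1526 and a highest of 1897 over 12 arrays. In short days it had a lowest of 804, a median of 914 and a highest of 1660. The means were 1485 ± 354 in long days and 1029 ± 282 in short days (SD over 12 arrays each), so that the ranges overlapped while the medians lay well apart.

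The overlap came from few arrays, mainly those of ZT18 and a short-day array of ZT14. In long days the set 1 and set 2 arrays of PTGDS read 1260 and 1535 (ZT2), 1706 and 1897 (ZT6), 1443 and 1784 (ZT10), 1869 and 1665 (ZT14), 1357 and 653 (ZT18), and 1517 and 1132 (ZT22). In short days they read 826 and 895 (ZT2), 899 and 1152 (ZT6), 864 and 941 (ZT10), 829 and 1526 (ZT14), 1660 and 1021 (ZT18), and 804 and 929 (ZT22). Both long-day arrays exceeded both short-day arrays at 5 of 6 times, all but ZT18, a pattern that 0.257% of all tested probe sets had at 5 or more times. Within the array sets, the long-day array was the higher in 10 of 12 comparisons at a time, and 2.55% of tested probe sets had 10 or more. At ZT18 the order of the arrays was mixed, and the set 2 array of long days was the lowest of all 24 for this gene.

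Averaged over the 6 times, PTGDS differed by 0.52 ± 0.13 log2 units (SE), a fold of 1.43 with an unadjusted 95% interval of 1.19 to 1.72, and limma gave an unadjusted p of 0.000497 and an adjusted p of 0.184. It did not pass the test over all probe sets. Without the second long-day array of ZT18 the estimate was 0.61 ± 0.12 with an adjusted p of 0.0389, the only one of 37 alternatives in which a member passed, and over all of them the adjusted p ran up to 1. Set 1 alone gave 0.68 (adjusted p = 0.126) and set 2 alone 0.36 (adjusted p = 0.854).

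By time, the PTGDS estimate was 0.69 (ZT2), 0.82 (ZT6), 0.83 (ZT10), 0.65 (ZT14), -0.47 (ZT18) and 0.60 (ZT22), each with an SE of 0.31. None passed the adjusted test at its time, where limma called 2 of all probe sets at ZT2 (0.00694%), 4 at ZT6 and 4 at ZT10 (0.0139% each), 8 at ZT14 (0.0277%), 5 at ZT18 (0.0173%) and 3 at ZT22 (0.0104%). With single arrays left out, the ZT18 estimate ran from -0.995 to 0.06, the highest being that without the second long-day array. At the other times it stayed above 0, with the widest of their ranges at ZT14, 0.209 to 1.087. In descending order the group means were led by long days at ZT6, ZT14, ZT10 and ZT2, and short days at ZT10, ZT22 and ZT2 came last. Neighbours in that order differed by at most 0.21 log2 units, less than the replicate SD of 0.35, while the highest and lowest groups were 1.07 apart.

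IGFBP2, a secreted protein that binds insulin-like growth factors, was the most evenly measured of the 6 genes. Its intensity had a lowest value of 842, a median of 989 and a highest of 1132 in long days, against a lowest of 936, a median of 1107 and a highest of 1365 in short days. The means were 983 ± 90.4 in long days and 1141 ± 154 in short days (SD over 12 arrays each). Its replicate SD of 0.21 log2 units was low for this study: 2.2% of tested probe sets had a lower one, and the median over all was 0.75.

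The direction of IGFBP2 was the same throughout. In long days the set 1 and set 2 arrays read 979 and 842 (ZT2), 1132 and 961 (ZT6), 1090 and 891 (ZT10), 1026 and 1035 (ZT14), 999 and 873 (ZT18), and 1055 and 908 (ZT22). In short days they read 1201 and 950 (ZT2), 1335 and 1014 (ZT6), 1365 and 988 (ZT10), 1311 and 1106 (ZT14), 1095 and 1108 (ZT18), and 1279 and 936 (ZT22). The long-day array lay below the short-day array of the same set and time in 12 of 12 comparisons, as in 0.146% of tested probe sets, and the long-day mean was lower at 6 of 6 times, as in 2.23% of them. The 6 long-day group means ran from 911 to 1047 and the 6 short-day group means from 1076 to 1208, without overlap. The share of all tested probe sets with such group means was not computed. Single arrays overlapped, and both long-day arrays lay below both short-day arrays at 2 of 6 times. How many of all tested probe sets had such arrays at 2 times was not computed either. Set 1 read higher than set 2 in 10 of 12 groups.

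The photoperiod estimate for IGFBP2 was -0.21 ± 0.10 log2 units (SE), a level 1.16-fold lower in long days, with an unadjusted 95% interval of -0.41 to -0.01, and it did not pass (limma, unadjusted p = 0.0428, adjusted p = 0.905). For the mean change the limma unadjusted p was 0.152 without the variance trend, 0.301 without centring and 0.00859 with the replicate block. The estimates by time lay between -0.24 and -0.16, each with an SE of 0.24. Set 1 alone gave -0.27 (adjusted p = 0.37) and set 2 alone -0.15 (adjusted p = 0.911).

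TTR, the carrier of thyroid hormone, was close to background. The brighter of its probe sets had a lowest value of 8.32, a median of 28.4 and a highest of 49.7 in long days, against a lowest of 11.99, a median of 33.1 and a highest of 50.6 in short days. The groups overlapped over nearly their whole range, with means of 28.4 ± 13.1 in long days and 33.1 ± 14.02 in short days (SD over 12 arrays each). The photoperiod estimate was -0.22 ± 0.27 log2 units (SE) with an unadjusted 95% interval of -0.78 to 0.35 (limma, adjusted p = 0.989), an interval that leaves room for a difference of either sign. Set 1 was above background on 12 of 12 arrays and set 2 on 8 of 12.

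The single times of TTR did not run one way. At ZT14 both long-day arrays, at 49.7 and 42.6, exceeded both short-day arrays, at 19.3 and 12.5, and the estimate was 1.48 ± 0.67 (SE, limma unadjusted p = 0.038, adjusted p = 0.913). Without the second long-day array of that time it was 1.58. At the other 5 times the estimate was below 0, from -1.09 at ZT2 to -0.02 at ZT6. At 2 of them both long-day arrays lay below both short-day arrays. They read 17.97 and 32.95 against 48.68 and 47.62 at ZT10, and 28.37 and 16.61 against 30.83 and 33.42 at ZT18. The share of all tested probe sets with such separations was not computed. At ZT2 one of the long-day arrays read 8.32 and the other 47.2, against 50.6 and 39.9 in short days, and without the low array the estimate was 0.07.

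**Figure D2:**
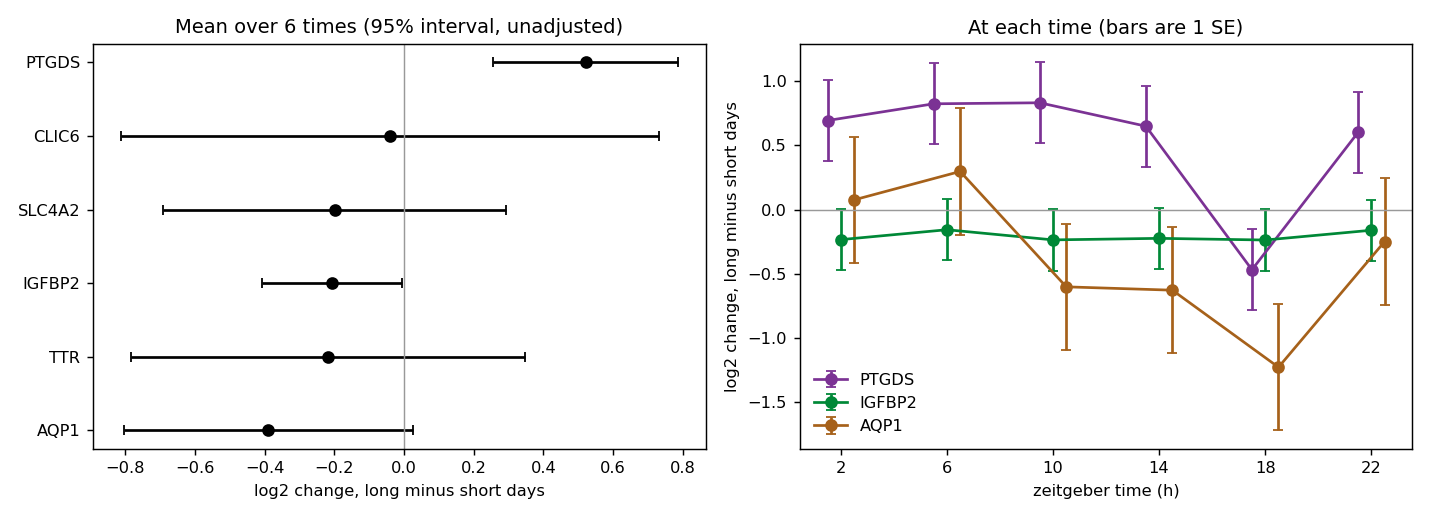
Left, log2 change, long minus short days, averaged over 6 times for each gene, with bars for the unadjusted 95% interval; right, the change at each zeitgeber time for PTGDS, IGFBP2 and AQP1, with bars of 1 SE. The PTGDS interval lies well above 0, and the IGFBP2 interval lies just below 0, with its upper end at -0.007. PTGDS is above 0 at every time but ZT18, and IGFBP2 is below 0 by a like amount at all 6 times.

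Of the genes for water and ion transport, AQP1 is, in mammals, the water channel of the apical face of choroid plexus epithelium. Its intensity had a lowest value of 89.3, a median of 121 and a highest of 261 in long days, against a lowest of 77.7, a median of 187 and a highest of 406 in short days. The ranges overlapped, and the means were 141 ± 54.4 in long days and 191 ± 84.6 in short days (SD over 12 arrays each). The photoperiod estimate of -0.39 ± 0.20 log2 units (SE), with an unadjusted 95% interval of -0.80 to 0.03, did not pass (limma, adjusted p = 0.931). Set 1 alone gave -0.25 and set 2 alone -0.53.

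The AQP1 estimates by time were 0.08 (ZT2), 0.30 (ZT6), -0.60 (ZT10), -0.63 (ZT14), -1.23 (ZT18) and -0.25 (ZT22), each with an SE of 0.49. At ZT18 the long-day arrays read 106 and 123, below both short-day arrays at 406 and 178 (limma, unadjusted p = 0.0202, adjusted p = 1), and without the first short-day array the estimate was -0.64. At ZT10 both long-day arrays, 110 and 125, were below both short-day arrays, 151 and 210. The share of all tested probe sets with such a separation at 2 times was not computed. At the remaining 4 times the arrays of the photoperiods overlapped. Without the second long-day array of ZT14 the estimate at that time was 0.03, and the mean over the times was -0.28.

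SLC4A2 is, in mammals, an anion exchanger of the basolateral face of this epithelium, which swaps bicarbonate for chloride. Its brightest probe set had a lowest value of 26.6, a median of 52.9 and a highest of 120 in long days, against a lowest of 30.1, a median of 73.1 and a highest of 124 in short days, ranges that nearly coincide. The estimate was -0.20 ± 0.24 log2 units (SE) with an unadjusted 95% interval of -0.69 to 0.29 (limma, adjusted p = 0.989). The array sets gave opposite signs, -0.77 in set 1 (adjusted p = 0.298) and 0.37 in set 2 (adjusted p = 0.922). In set 1 the long-day array was lower at 6 of 6 times, and in set 2 it was higher at 4 of 6. A second, dimmer probe set of the gene, above background on 23 of 24 arrays, averaged 35.6 ± 9.48 in long days and 30.3 ± 7.12 in short days, with an estimate of 0.22 ± 0.21 (SE, limma adjusted p = 0.988). The probe sets of SLC4A2 thus disagreed in sign, and neither passed.

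CLIC6, an intracellular chloride channel protein and a marker of choroid plexus epithelium in mammals, gave values at or below background on most arrays. They had a lowest value of 1.73, a median of 15.99 and a highest of 28.4 in long days, against a lowest of 1.72, a median of 13.6 and a highest of 30.3 in short days. The photoperiod estimate was -0.04 ± 0.37 log2 units (SE) with an unadjusted 95% interval of -0.81 to 0.73 (limma, adjusted p = 0.998). At ZT14 the long-day arrays read 3.86 and 1.73, against 30.3 and 14.7 in short days, an estimate of -2.45 ± 0.92 (SE, limma unadjusted p = 0.0136, adjusted p = 0.878). Without the second long-day array of that time it was -2.08. Only 1 of those 4 values was above background, so most of these values have no reliable order.

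No member had a daily pattern that passed a test. Over all probe sets limma called 6 (0.0208%) for time of day in short days, 0 in long days (987 at an unadjusted p under 0.05, or 3.42%) and 2 (0.00694%) for a daily pattern that differed between the photoperiods. A 24 h cosine fitted in each photoperiod called 6 (0.0208%) in short days, 0 in long days (1163 at an unadjusted p under 0.05, or 4.03%) and 2 (0.00694%) for the difference of the cosines. For PTGDS the long-day cosine had an amplitude of 0.35 ± 0.13 log2 units and a peak at ZT 8.08, and the short-day cosine one of 0.22 ± 0.13 and a peak at ZT 15.5 (SE). In limma the difference had an unadjusted p of 0.0469 and an adjusted p of 0.999, and the long-day cosine had 0.0363 and 1.

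AQP1 had the largest cosine of the members above background on all arrays, and it was in short days. Its amplitude was 0.11 ± 0.18 log2 units in long days and 0.64 ± 0.18 in short days (SE). In short days the unadjusted p was 0.00661 and the adjusted p was 1, with the peak at ZT 16.8, and the difference between photoperiods had an unadjusted p of 0.0631 (limma). Its group means were 125, 145, 117, 158, 115 and 190 from ZT2 to ZT22 in long days, against 126, 116, 181, 222, 292 and 210 in short days. At ZT2 the linear means and the log2 estimate of 0.08 differed in sign, with arrays at 147 and 101 in long days and 173 and 77.7 in short days. The highest of these groups, short days at ZT18, had an SD of 161 between its 2 arrays, and neighbours in the order of all 12 groups differed by at most 0.40 log2 units, less than the replicate SD of 0.56. IGFBP2 had amplitudes of 0.06 ± 0.09 in long days and 0.08 ± 0.09 in short days, the smallest of the 6 genes in each photoperiod. For CLIC6 the cosines differed by 1.91 (limma, unadjusted p = 0.00265, adjusted p = 0.999), again on values near background. Its long-day cosine and its interaction of photoperiod with time had unadjusted p of 0.0198 and 0.0324 and adjusted p of 1. No other cosine, time of day or interaction test of a member had an unadjusted p under 0.05.

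Other genes of the same tissues spread on both sides of 0. Among 38 tested genes of choroid plexus epithelium 0 rose and 0 fell in limma (4 higher and 1 lower at an unadjusted p under 0.05), with 20 estimates above 0 and 18 below and a median of 0.06, where the median over all tested probe sets was -0.01. CA2 and CA12, carbonic anhydrases that supply bicarbonate for fluid secretion, had estimates of 0.40 ± 0.10 (adjusted p = 0.151) and 0.76 ± 0.28 (adjusted p = 0.712), and CA2 averaged 1076 ± 101 in long days and 825 ± 150 in short days. The prolactin receptor PRLR was at 0.46 ± 0.14 (adjusted p = 0.526) and the sulfate transporter SLC13A4 at 0.72 ± 0.31 (adjusted p = 0.851), all by limma with SE. TTR, IGFBP2, AQP1, SLC4A2 and CLIC6, which are in this list, had estimates below 0 by their brightest probe sets. Summed over the list, intensities had a lowest value of 12250, a median of 14170 and a highest of 17140 in long days, against 13050, 14820 and 15680 in short days.

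Among 22 tested genes for ion and water transport into cerebrospinal fluid 0 rose and 0 fell (2 higher and 0 lower at an unadjusted p under 0.05 in limma), 13 had estimates above 0 and 9 below, and the median was 0.09. Besides the carbonic anhydrases, the sodium pump subunit ATP1B3 was at 0.15 ± 0.08 and the chloride channel CLCN2 at 0.50 ± 0.27 (SE). In this list AQP1 had the smallest p of any gene with an estimate below 0.

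Among 24 tested genes of meninges and fibroblasts 0 rose and 0 fell (1 higher and 3 lower at an unadjusted p under 0.05 in limma), 7 had estimates above 0 and 17 below, and the median was -0.20. PTGDS had the highest estimate of that list, on the other side of 0 from its median. The collagen gene COL1A1 was at -0.65 ± 0.22 (limma adjusted p = 0.622), the small matrix proteoglycans FMOD and BGN at -0.999 ± 0.42 and -0.78 ± 0.39, and the transcription factor ZIC1 at -0.25 ± 0.11 (SE). COL1A1 averaged 160 ± 60.1 in long days and 238 ± 56.4 in short days, whereas FMOD and BGN were above background on 1 of 12 long-day and 4 of 12 short-day arrays each. Summed intensities of the list, PTGDS included, had a lowest value of 3680, a median of 4645 and a highest of 6212 in long days, against 3701, 4825 and 6310 in short days.

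**Figure D3:**
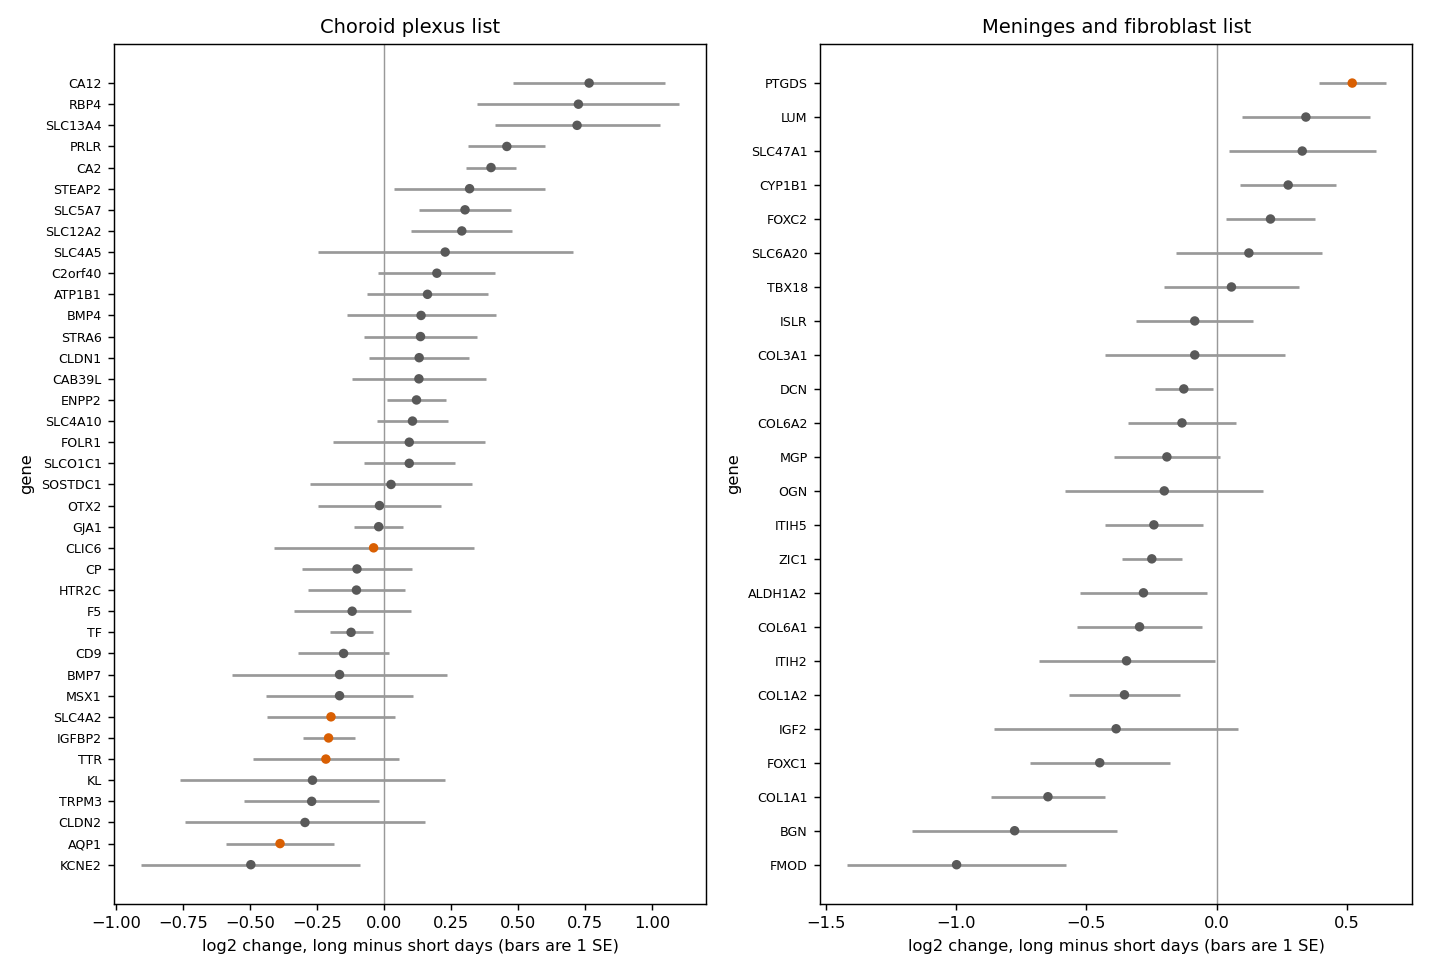
Log2 change, long minus short days, with bars of 1 SE, for the tested genes of the choroid plexus list (left, 38 genes) and of the meninges and fibroblast list (right, 24 genes), with the genes described here in orange. TTR, IGFBP2, SLC4A2, AQP1 and CLIC6 lie in the lower part of the left list, and PTGDS is the highest of the right list, where 17 genes lie below 0.

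Markers of other cells that make PTGDS, or that a dissection of this region can hold, had these values, with calls by limma. Of 12 tested oligodendrocyte genes 0 rose and 0 fell (0 at an unadjusted p under 0.05), and 2 had estimates above 0 and 10 below. Of 14 genes of that list on the array, 8 were above background on all 24 arrays, whereas CNP and MOG were above it on 0. The summed intensity of the list had a lowest value of 10550, a median of 14940 and a highest of 18540 in long days, against 14450, 15770 and 19080 in short days. Of 12 tested genes of the anterior pituitary, CGA and TSHB rose, by 1.85 and 4.54 log2 units, and POMC fell by 1.04. Estimates of that list were above 0 for 7 genes and below 0 for 5, with a median of 0.07. Its summed intensity, with CGA, TSHB and POMC included, was 2829 to 4641 in long days and 1844 to 3150 in short days. Of 9 tested tanycyte genes, DIO2 rose by 1.97 and FABP7 fell by 0.95 (limma, adjusted p = 9.74e-09 and 0.000992). Of 19 tested genes of endothelium and pericytes 0 rose and 0 fell (2 higher and 0 lower at an unadjusted p under 0.05), and 14 had estimates above 0, with a median of 0.13. In each of the lists of ependyma (14 tested), blood cells (10 tested) and retina and pineal (9 tested), 0 rose and 0 fell, and at an unadjusted p under 0.05 there were 1, 0 and 1 genes, all lower. The part of these cells in the values of PTGDS and IGFBP2 was not tested. The 3'/5' signal ratio of ACTB, a measure of RNA quality, was 1.84 ± 0.15 log2 units in long days and 1.69 ± 0.17 in short days (SD over 12 arrays each), and its part was not tested.

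The routes in which these proteins act held no gene that passed. Of 12 tested genes of prostaglandin D synthesis and signalling 0 rose and 0 fell (1 higher, PTGDS itself, at an unadjusted p under 0.05 in limma), with 6 estimates above 0 and 6 below. The cyclooxygenase PTGS1, which makes the precursor of prostaglandin D, was at -0.48 ± 0.27, and HPGDS, the other prostaglandin D synthase, at 0.40 ± 0.31 (SE). Of 17 tested genes of the insulin-like growth factor axis 0 rose and 0 fell (1 higher and 2 lower at an unadjusted p under 0.05 in limma), with 7 estimates above 0 and 10 below. IGFBP7, another binding protein of that family, was at -0.20 ± 0.09 and averaged 1895 ± 211 in long days and 2179 ± 311 in short days, and IGFBP5 was at 0.23 ± 0.12. PAPPA, a protease that cuts binding proteins of the family, was at 0.57 ± 0.26 (limma, adjusted p = 0.879).

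Of 16 tested genes for carriage of thyroid hormone and vitamin A 0 rose and 0 fell (1 higher and 1 lower at an unadjusted p under 0.05 in limma), with 9 estimates above 0 and 7 below. CRABP1, which binds retinoic acid inside cells, was at -0.67 ± 0.19 (limma, adjusted p = 0.383), with 30.0 ± 8.43 in long days and 48.1 ± 12.4 in short days (SD over 12 arrays each). RBP4, the plasma carrier of retinol that binds TTR, was at 0.72 ± 0.38 and was above background on 7 of 12 long-day and 6 of 12 short-day arrays. ALDH1A1, an enzyme that makes retinoic acid, was at 0.51 ± 0.24 (SE).

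No pair of the 6 genes passed a test of correlation across arrays. Among the 15 pairs, 0 correlations over the 24 arrays passed after adjustment over the pairs and 2 had an unadjusted p under 0.05 (permutation tests, 100000 permutations, 2-sided), and Pearson's r ran from -0.56 to 0.35 with a median of 0.01. Within the choroid plexus genes, r was 0.06 between TTR and AQP1, 0.35 between TTR and IGFBP2, 0.28 between TTR and SLC4A2, and -0.44 between TTR and CLIC6 (permutation p = 0.0299, adjusted p = 0.224, Spearman's rho -0.43).

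The lowest r was that between SLC4A2 and PTGDS, -0.56 (permutation p = 0.00562, adjusted p = 0.0843), with a Spearman's rho of -0.53 (permutation p = 0.00841, adjusted p = 0.126). Without the 2 arrays farthest from the median of SLC4A2, r was -0.44, and without centring of the arrays it was -0.20 (permutation p = 0.355). It was -0.76 in set 1 (permutation adjusted p = 0.0205) and -0.40 in set 2. Over the 12 differences between the arrays of a group, which hold neither photoperiod nor time, it was -0.62 (permutation p = 0.031, adjusted p = 0.233).

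Other pairs depended on the array set. In set 1, IGFBP2 correlated with SLC4A2 at 0.82 (permutation adjusted p = 0.0126) and with PTGDS at -0.79 (permutation adjusted p = 0.0205), but in set 2 these values were -0.47 and 0.11. Values within a set also hold the differences between photoperiods and times. Over the 12 differences between the arrays of a group, r was 0.29 and -0.48 for these pairs (permutation p = 0.36 and 0.11). Without centring of the arrays, TTR and IGFBP2 correlated at 0.65 and AQP1 and IGFBP2 at 0.64, both with a permutation adjusted p of 0.00667, and array brightness is shared by all probe sets in those values.

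**Figure D4:**
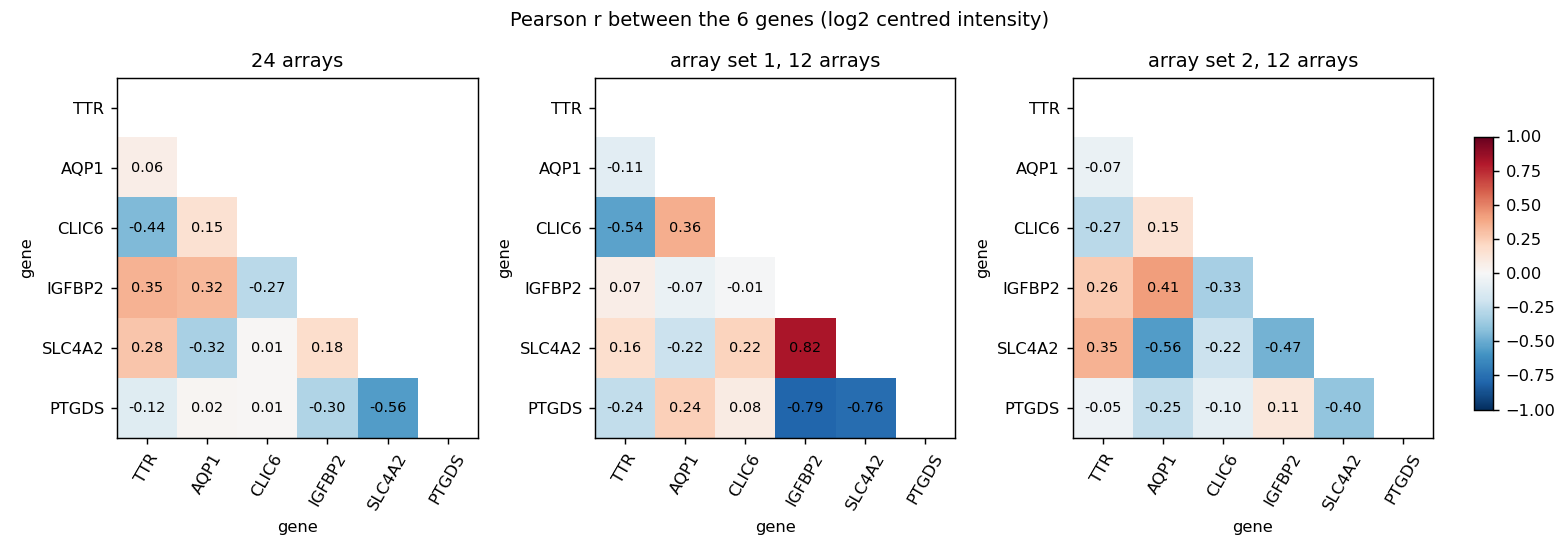
Pearson's r between the log2 centred intensities of each pair of the 6 genes, over all 24 arrays (left), the 12 arrays of set 1 (middle) and the 12 of set 2 (right), on a colour scale of -1 to 1. The pair of SLC4A2 and PTGDS is below 0 in all 3 panels, while IGFBP2 with SLC4A2 and IGFBP2 with PTGDS differ in sign between the sets.

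The genes whose values ran most like those of each member over the 24 arrays are given as a description, since they share arrays, brightness and background. For IGFBP2 they were EFNA5 (r = 0.85), ISL1 (0.84) and NDP (0.82), all above background on 24 of 24 arrays. In set 1 these r were 0.86, 0.81 and 0.87, and in set 2 they were 0.71, 0.54 and 0.47. For AQP1 they were PRAG1 (0.80), AGK (0.72) and DIP2A (0.715), also above background on every array.

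For PTGDS they were STRADB (r = 0.72), COBLL1 (0.67) and RASD1 (0.66), of which RASD1 was above background on all 24 arrays and STRADB on 11. For SLC4A2 they were HBS1L (0.69), ID2 (0.68) and TUB (0.67). For CLIC6 they were ZAP70 (0.78), STRIP2 (0.74) and ANK2 (0.73), each above background on 10 or fewer arrays. For TTR they were CYBRD1 (0.745), MIEF1 (0.73), MKI67 (0.73), MRPL9 (0.72), NAV2 (0.71), ZFP2 (0.69), TMEM53 (0.69) and DVL1 (0.68). CYBRD1 was above background on 1 of 24 arrays and MIEF1 on 9, whereas MRPL9 and TMEM53 were above it on 22 and DVL1 on 23. The choroid plexus list above holds 38 of 11830 tested genes, and none of the genes named as most like TTR is in it. With so small a share, that absence does not bear on where TTR was made.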

How the data were processed

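The deposited values are 1 intensity per probe set and array, on a linear scale, as the authors made them. The submitters' processing notes name GCOS 1.2; how it was set and whether values were scaled is not given in the sources used here. Of 38535 probe sets, 96 controls were left out. Values were taken as log2(intensity + 1.497), the constant being 10% of the median of 14.97 over all arrays, and each array was centred on its median. Fold changes on this scale understate those of dim genes. Probe sets in the lowest 25% of mean were left out, and 28829 were tested.

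limma 3.58.1 in R 4.3.3 (lmFit, eBayes with trend) was fitted with a mean for each of 12 groups (12 residual degrees of freedom). Contrasts gave the photoperiod change averaged over 6 times, the change at each time, time of day in each photoperiod and the interaction. A second model had a 24 h cosine in each photoperiod (18 residual degrees of freedom). Benjamini-Hochberg adjustment ran across the 28829 probe sets, with a threshold of 0.05. Intervals are unadjusted, and a p above the threshold does not show that groups were alike. The spread behind a p-value is that between arrays of pooled birds. The fits were also run on simulated data with independent noise between arrays, and no result here rests on that run. Relations between the 6 genes used 100000 permutations over 15 pairs in Python 3.11.15 with NumPy 2.4.6, and figures used matplotlib 3.10.9.

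For a gene with several probe sets the brightest on average stood for it. Named genes were all members, each list gene past a test plus up to 4 others with the smallest photoperiod p, the 8 genes most correlated with TTR and the 3 most correlated with each other member. ENPP2, F5, HTR2C, KL, KCNE2, CLDN2, OTX2, FOLR1, CNP and MOG fall outside this rule and were chosen after their values were seen, to show how far markers exceeded background. The platform annotation gave 27168 probe sets 1 symbol, 177 several and 11094 none, and of the members AQP1, CLIC6, IGFBP2 and SLC4A2 occur as symbols in a quail gene table, while TTR and PTGDS do not, so that their probe sets are named by the platform annotation alone. Members and lists were chosen with earlier results of these data known. The main tests did not pair arrays by number: the deviations of same-numbered arrays at a time correlated at 0.03 to 0.10 between photoperiods, at 0 of 6 times over 0.1. Over all 66 pairs of groups these correlations ran from 0.01 to 0.103 with a median of 0.045, so that a small part was shared by number. Comparisons of arrays of the same set and time are a description. Alternatives were other constants, quantile normalization, no centring, scaling before the constant, other filters, no variance trend, array weights, a replicate block, each array set alone, the mean of all probe sets of a gene, and leaving out each array.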

Additional observations from a re-analysis of the deposited data

How the results depend on the processing

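Depth is not defined for these arrays, and 2 arrays a group and dim signals of TTR and CLIC6 limit precision. Of 37 alternatives, 36 left 0 members past the photoperiod test, and leaving out the second long-day array of ZT18 gave 1 (PTGDS), so that the count ran from 0 to 1 over the single arrays left out. The PTGDS estimate ran from 0.433 to 0.609 over them, and with the replicate block its adjusted p was 0.0807. The replicate block gave no member a call. Over all probe sets the photoperiod test called 38, and 76 with the replicate block, 74 with quantile normalization, 12 without centring and 16 with set 2 alone. Over all alternatives the calls at single times ran from 1 to 27 at ZT2 (2 as reported), 1 to 17 at ZT6 (4), 2 to 72 at ZT10 (4), 2 to 344 at ZT14 (8), 2 to 7 at ZT18 (5) and 2 to 20 at ZT22 (3). Time of day ran from 0 to 36 in short days (6) and 0 to 93 in long days (0), the interaction from 0 to 32 (2), and the cosine from 2 to 11 in short days (6), with its difference from 0 to 2 (2). The signs of TTR, SLC4A2 and CLIC6 were not stable. CLIC6 was at 0.017 with a constant of 16 and ran from -0.243 to 0.163 without single arrays, and it was not tested with the lowest 50% left out. The mean of all probe sets of a gene gave 0.102 for TTR and 0.084 for SLC4A2, and set 2 alone gave 0.37 for SLC4A2. The other photoperiod estimates kept their sign. TTR at ZT6 was 0.13 with quantile normalization.

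With 1 array left out, estimates at single times changed sign as follows, as ranges. At ZT2, TTR ran from -2.241 to 0.069 and AQP1 from -0.496 to 0.645. At ZT6, TTR ran from -0.938 to 0.893, AQP1 from -0.117 to 0.709, IGFBP2 from -0.355 to 0.041 and SLC4A2 from -0.756 to 0.586. At ZT14, AQP1 ran from -1.289 to 0.034 and SLC4A2 from -0.486 to 0.936. At ZT18, PTGDS ran from -0.995 to 0.059. At ZT22, TTR ran from -0.586 to 0.173, AQP1 from -0.815 to 0.317, CLIC6 from -1.608 to 0.622 and IGFBP2 from -0.386 to 0.064. A lone array is assumed in those fits to vary like the other groups.

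Of 15 relations, 2 passed without centring and 3 in set 1, against 0 over all arrays. The values of r that changed sign follow. With quantile normalization, TTR and AQP1 had -0.0046 and IGFBP2 and SLC4A2 -0.0348. Without centring, TTR and PTGDS had 0.2441, AQP1 and SLC4A2 0.0497, CLIC6 and PTGDS -0.0144, and IGFBP2 and PTGDS 0.3522. In set 1, TTR and AQP1 had -0.1057 and AQP1 and IGFBP2 -0.0662. In set 2, TTR and AQP1 had -0.0678, AQP1 and PTGDS -0.2461, CLIC6 and SLC4A2 -0.2165, CLIC6 and PTGDS -0.0993, IGFBP2 and SLC4A2 -0.4719, and IGFBP2 and PTGDS 0.1118. Over differences within groups, TTR and AQP1 had -0.1857, AQP1 and IGFBP2 -0.6723, and CLIC6 and PTGDS -0.2918. Without the 2 most distant arrays, TTR and AQP1 had -0.0734, AQP1 and PTGDS -0.1977, CLIC6 and PTGDS -4e-04, and IGFBP2 and SLC4A2 -0.0247. The causes were not tested.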
